A study of Mus musculus with 8 samples.

Results

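ATF4 and endoplasmic reticulum (ER) stress genes were examined in muscle stem cells (MuSCs) of aged mice cultured with nicotinamide and pyridoxine (NAM/PN). The 10 genes were taken by name from the count table, namely Atf4, Atf3, Ddit3, Trib3, Asns, Chac1, Sesn2, Hspa5, Hsp90b1 and Xbp1. They are 10 of the 55487 genes counted, and 9 of them were among the 12060 genes that passed the filter on low counts and were tested. Nicotinamide is an amide form of vitamin B3 and pyridoxine is a form of vitamin B6. MuSCs were sorted from the muscles of aged male C57BL/6JRj mice, and 8 mice were combined into 4 pools of 2 mice. Each pool was cultured for 72 hours in growth medium, once with NAM/PN at 1 mM and once with 1% DMSO as vehicle, which gave 4 libraries per condition. The labels give a single concentration for the combination, and the number of samples, the DMSO share and the time of culture follow the labels. The study's figure legend differs from them in the number. Its methods for a separate MuSC proliferation assay differ in the DMSO share and the time of culture. The labels name no transgene or deletion, and the cells of both conditions were kept in the same medium and for the same time. The comparison asks how NAM/PN changes transcription in aged MuSCs, and here how it changes the transcripts of the stress response.

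Cells answer a shortage of amino acids, heme or ER folding capacity by phosphorylating the initiation factor eIF2, which lowers general protein synthesis while the mRNA of the transcription factor ATF4 is translated more. ATF4 then raises genes of amino acid synthesis and transport together with stress regulators such as CHOP, encoded by Ddit3, in what is called the integrated stress response. When unfolded proteins accumulate in the ER, the sensors PERK, IRE1 and ATF6 start the unfolded protein response, in which XBP1 and ATF6 raise ER chaperones. In MuSCs, phosphorylation of eIF2 by PERK is known to keep translation low in the quiescent state. Since ATF4 is controlled at translation and XBP1 by splicing of its mRNA, gene counts measure neither the ATF4 protein nor spliced Xbp1.

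The promoter sequences of the 10 genes show which of them carry the motifs that these factors are known to bind, so the motifs are shown before the values. All 10 genes were matched by symbol to RefSeq promoter windows of 300 bases, from 250 bases before to 50 bases after the gene start, on GRCm38.p6. The C/EBP-ATF composite element, TGATGNAA on either strand, to which ATF4 binds with C/EBP proteins, was found in 4 of the 10 windows (Atf3, Trib3, Asns and Chac1), against 4.51% of the 27025 windows in the table. The ER stress element, CCAAT and CCACG separated by 9 bases on either strand, at which ATF6 and XBP1 act together with NF-Y, was found in the windows of Hspa5 and Hsp90b1, against 0.137% of all windows. The core TGACGTGG of the unfolded protein response element and the cyclic AMP element TGACGTCA were in 0 of the 10 windows, against 0.714% and 2.03% of all windows. Positions are counted from the RefSeq start, which differs from the GENCODE gene start given with each gene further on, so that among the 10 genes the stretches of Atf3, Asns and Hspa5 lie before the RefSeq start and inside the GENCODE gene, those of Asns and Hspa5 in an annotated exon. The stretches around the matches upstream of the RefSeq start are given below from 5′ to 3′ on the strand of the gene, with the matched motif in capitals, and the match of Trib3 lies after its RefSeq start, though before its GENCODE start, and is not printed. Slc7a11 is added because it is the one gene of the lists described further on that passed the test without a block (its call was lost with the pool as block, adjusted p = 0.0644).
Atf3, chr1:191183416-191183463, - strand: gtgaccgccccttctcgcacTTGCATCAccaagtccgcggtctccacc
Asns, chr6:7693215-7693242, - strand: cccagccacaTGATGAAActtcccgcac
Chac1, chr2:119351029-119351076, + strand: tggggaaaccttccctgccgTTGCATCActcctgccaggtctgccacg
Slc7a11, chr3:50443633-50443699, - strand: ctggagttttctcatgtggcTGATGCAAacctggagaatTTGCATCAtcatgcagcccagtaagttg
Hspa5, chr2:34772020-34772048, + strand: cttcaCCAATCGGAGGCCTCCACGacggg
Hsp90b1, chr10:86705513-86705676, - strand: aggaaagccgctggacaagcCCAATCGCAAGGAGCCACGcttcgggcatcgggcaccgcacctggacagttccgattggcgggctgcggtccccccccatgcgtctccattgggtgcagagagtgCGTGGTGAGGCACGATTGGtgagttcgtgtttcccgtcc
Slc7a11 carried 2 composite elements in opposite orientation, and Hsp90b1 carried 2 ER stress elements in opposite orientation. A match in these letters is a description of the sequence and was not measured as a binding site.

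**Figure D1:**
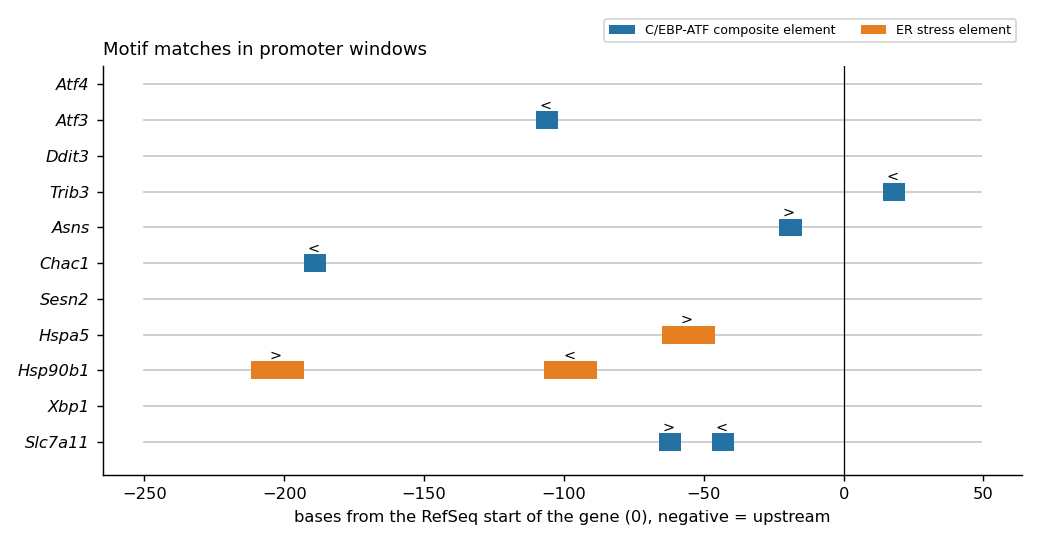
Positions of motif matches in the promoter windows of the 10 genes and of Slc7a11, in bases from the RefSeq gene start, with the orientation of each match relative to the gene shown above it. The composite element lies within 250 bases upstream of the start in Atf3, Asns, Chac1 and Slc7a11 and downstream of it in Trib3, and the ER stress element lies upstream in Hspa5 and Hsp90b1.

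The libraries held between 6472484 and 10163101 counts. Values are given as CPM, the counts of a gene relative to the library size after TMM normalization in edgeR. Reads were taken from the 3′ end of transcripts and counts were not divided by gene length, so that levels are compared between libraries and not between genes. Of the 12 MuSC and myoblast markers 10 were tested, and their summed level was between 3956 and 4668 CPM with vehicle and between 2806 and 3395 CPM with NAM/PN. Of these 10 markers 9 were lower with NAM/PN and 1 fell, Ncam1 by 1.22 on the log2 scale (adjusted p = 0.000147), while Pax7 and Myod1 stood at -0.18 and -0.19 (adjusted p = 0.923 and 0.824). The 10 tested markers of the labelled cell type were thus detected in all 8 libraries, while Chodl (0 to 25 counts) and Calcr (0 to 12 counts) were not. Ptprc, Pdgfra and Emcn, which define immune, fibro-adipogenic and endothelial cells, had 0 counts in every library. Other markers of these cells were present, with 14 to 7409 counts per library for Col1a1, 26 to 316 for Egfl7, 9 to 64 for Cd68, 0 to 24 for Pecam1 and 0 to 25 for Cdh5, and Col1a1 differed by a log2 fold change of 4.97 (adjusted p = 0.0709) with values between 3.27 and 1032 CPM in NAM/PN libraries. Of the 16 differentiating myocyte markers 12 fell (median log2 fold change of the list, -2.37), and their sum was 2024 to 3882 CPM with vehicle and 448 to 1058 CPM with NAM/PN. Other marker lists summed to 267 to 341 and 84.1 to 1157 CPM (fibro-adipogenic, 3 of 8 markers tested and 2 lower), 285 to 611 and 95.9 to 156 CPM (mural, 3 of 8 tested and 1 lower), 3.46 to 21.2 and 9.85 to 29.6 CPM (endothelial, 1 of 8 tested) and 1.61 to 7.58 and 3.50 to 7.14 CPM (immune, 1 of 8 tested), with vehicle and NAM/PN respectively. In bulk libraries, fewer cells of a type and less RNA per cell cannot be told apart, and the part of the fall in myocyte markers in the stress gene values was not tested. Ribosomal RNA took 18.7% of the counts in vehicle replicate 3 and 5.22% to 11.6% in the other 7 libraries.

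None of the 9 tested genes passed the test between NAM/PN and vehicle. In the quasi-likelihood test of edgeR, with p-values adjusted by Benjamini-Hochberg across the 12060 genes, 0 of 9 passed an adjusted p of 0.05, against 1.28% of all tested genes. At an unadjusted p under 0.05 the count was also 0 of 9, against 9.28% of all tested genes. DESeq2 called 0 of them, and voomWithQualityWeights called 0 with 1 of them, Sesn2, at an unadjusted p under 0.05. The median log2 fold change of the 9 genes, NAM/PN minus vehicle, was 0.024 with a range of -0.57 to 0.88, beside a median of -0.0022 over all tested genes, and 5 were higher and 4 lower. The intervals differ widely in what they leave possible, from a fold of 0.921 to 1.35 for Hspa5 to a fold of 0.510 to 6.61 for Trib3.

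**Figure D2:**
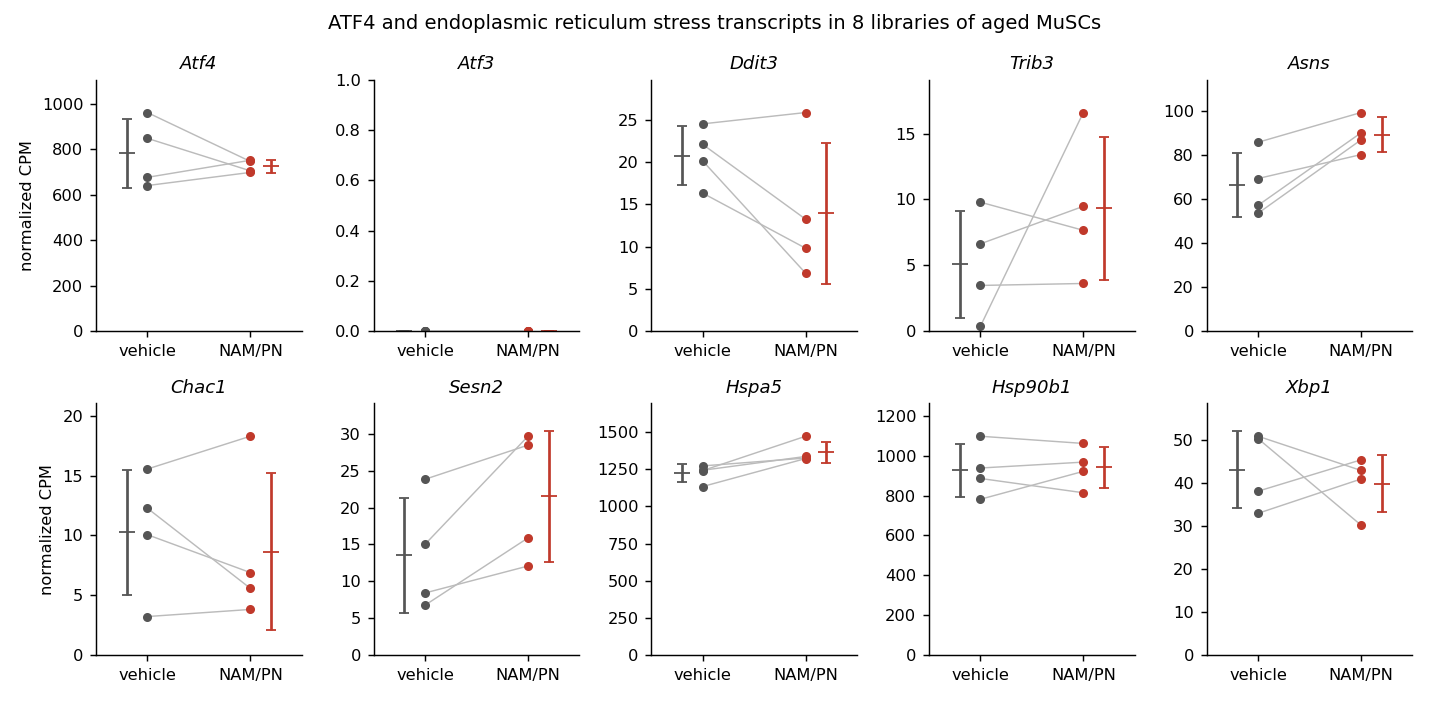
Normalized CPM of the 10 genes in each library, with vehicle in grey, NAM/PN in red and lines joining the libraries of a pool. Bars beside the points give the mean and SD of 4 libraries, each axis starts at 0, and only the panel of Hspa5 shows the 4 NAM/PN libraries all above the 4 vehicle libraries, while Atf3 is at 0 throughout.

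Atf4 (ENSMUSG00000042406, chr15:80255184-80257541, GRCm38) encodes the transcription factor at the head of the integrated stress response. Its level was 677, 849, 963 and 641 CPM in vehicle pools 1 to 4 and 753, 706, 747 and 699 CPM in NAM/PN pools 1 to 4. The NAM/PN libraries lay close together inside the range of the vehicle libraries, and Atf4 was higher with NAM/PN in 2 of the 4 pools and lower in the others. The vehicle mean was 783 ± 150 CPM and the NAM/PN mean 726 ± 27.6 CPM (SD, n = 4), with a log2 fold change of -0.11 (SE 0.16, 95% interval -0.44 to 0.22, adjusted p = 0.944). The interval corresponds to a fold between 0.739 and 1.17. Without vehicle replicate 3, the library with the highest Atf4 and the largest share of ribosomal RNA, the log2 fold change was 0.0018.

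Atf3 (chr1:191170296-191218039), an immediate stress regulator induced by ATF4, had 0 counts in all 8 libraries and was not tested. A count of 3, taken as the floor, corresponds to between 0.295 and 0.464 CPM of the library totals, so that Atf3 below this level was not detectable at this depth. Ddit3 (chr10:127290774-127296288) encodes CHOP, the transcription factor that links lasting ER stress to cell death. Its level was 24.5, 22.1, 20.1 and 16.3 CPM in vehicle pools 1 to 4 and 25.9, 13.2, 6.85 and 9.81 CPM in NAM/PN pools 1 to 4. Ddit3 was lower with NAM/PN in 3 of 4 pools, and the NAM/PN library of pool 1 was the highest of all 8, so that the conditions overlapped. The log2 fold change was -0.57 (SE 0.45, 95% interval -1.51 to 0.36, adjusted p = 0.820). Without NAM/PN replicate 1 it was -1.06 with an unadjusted p of 0.0365 and an adjusted p of 0.505 in edgeR's quasi-likelihood test. Without NAM/PN replicate 3 it was -0.35 with an unadjusted p of 0.442 and an adjusted p of 0.930 in that test. The 3′ end of Ddit3 shares 68 bases with Mars on the opposite strand, and the strand setting of the counting is not given in the sources used here, so reads there could not be assigned to either gene with certainty. A second annotated Ddit3 identifier at the same place, ENSMUSG00000116429, had 0 counts.

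Trib3 (chr2:152337422-152344032), a pseudokinase induced by ATF4 and CHOP that restrains ATF4 in turn, was the most variable of the 9 genes. Its level was 6.63, 3.47, 0.371 and 9.79 CPM in vehicle pools 1 to 4 and 9.48, 3.62, 16.6 and 7.66 CPM in NAM/PN pools 1 to 4. The libraries of pool 3 held both the lowest and the highest value, from 3 counts with vehicle and 109 counts with NAM/PN, and in pool 4 the order of the conditions was turned. The log2 fold change of 0.88 (SE 0.88, adjusted p = 0.890) became 0.059 without replicate 3 in both conditions. Chac1 (chr2:119351229-119354381) encodes an enzyme that degrades glutathione and is induced through ATF4. Its level was 10.1, 12.3, 3.21 and 15.6 CPM in vehicle pools 1 to 4 and 6.89, 5.57, 3.81 and 18.3 CPM in NAM/PN pools 1 to 4. Pool 4 was highest and pool 3 lowest in both conditions, and Chac1 was higher with NAM/PN in 2 of 4 pools. Chac1 differed by a log2 fold change of -0.25 (SE 0.68, 95% interval -1.67 to 1.18, adjusted p = 0.978). This value was -0.92 without NAM/PN replicate 4 and 0.013 without vehicle replicate 4.

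Asns (chr6:7675169-7693254), encoding asparagine synthetase, the classical target of the amino acid branch of ATF4, came closest to the threshold among the 9 genes. Its level was 69.4, 57.2, 53.6 and 85.9 CPM in vehicle pools 1 to 4 and 80.3, 90.1, 86.9 and 99.4 CPM in NAM/PN pools 1 to 4. Asns was higher with NAM/PN in every pool, but vehicle pool 4 lay above NAM/PN pool 1. The means were 66.5 ± 14.6 and 89.2 ± 7.95 CPM (SD, n = 4), with a log2 fold change of 0.42 (SE 0.21, 95% interval -0.019 to 0.86) and an unadjusted p of 0.0596 in edgeR's quasi-likelihood test across all genes (adjusted p = 0.577). In the same test the log2 fold change was 0.56 without vehicle replicate 4 (unadjusted p = 0.0245, adjusted p = 0.497). Without pool 2 it was 0.35 (unadjusted p = 0.202, adjusted p = 0.937). Sesn2 (chr4:132492032-132510501) encodes Sestrin2, a stress-induced sensor of leucine that restrains mTORC1. Its level was 8.41, 15, 23.8 and 6.75 CPM in vehicle pools 1 to 4 and 12.1, 29.7, 28.5 and 15.9 CPM in NAM/PN pools 1 to 4. Sesn2 was higher with NAM/PN within each pool, while the conditions overlapped because the level also differed between pools. The log2 fold change was 0.67 (SE 0.48, 95% interval -0.32 to 1.67, adjusted p = 0.787), and 0.75 in a fit that blocked on the pool (adjusted p = 0.685). It was 1.09 without vehicle replicate 3, with an unadjusted p of 0.0430 and an adjusted p of 0.495 in edgeR's quasi-likelihood test, and 0.44 without vehicle replicate 4. Sesn2 shares 6089 bases with Gm12981 on the same strand, a gene with 0 to 19 counts per library.

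Hspa5 (chr2:34771970-34777547) encodes BiP, the main ER chaperone of the HSP70 family and the standard readout of the unfolded protein response. Its level was 1244, 1242, 1134 and 1273 CPM in vehicle pools 1 to 4 and 1337, 1473, 1323 and 1326 CPM in NAM/PN pools 1 to 4. The 4 NAM/PN libraries lay above the 4 vehicle libraries without overlap. The means were 1223 ± 61.0 and 1365 ± 72.5 CPM (SD, n = 4), and the log2 fold change of 0.16 (SE 0.13, 95% interval -0.12 to 0.43, adjusted p = 0.843) was within the spread that the test assigned to it. Hspa5 was the only 1 of the 9 genes without overlap, against 7.21% of all tested genes. Asns, Sesn2 and Hspa5 moved the same way in all 4 pools, which makes 3 of 9, all of them higher, against 19.2% of all tested genes in either direction.

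Hsp90b1 (chr10:86690209-86705509) encodes GRP94, the HSP90 chaperone of the ER. Its level was 939, 886, 1098 and 782 CPM in vehicle pools 1 to 4 and 968, 814, 1062 and 922 CPM in NAM/PN pools 1 to 4. Pool 3 was highest in both conditions, and the conditions overlapped. The log2 fold change was 0.024 (SE 0.15, 95% interval -0.29 to 0.34, adjusted p = 0.992), which corresponds to a fold between 0.816 and 1.27. The 3′ end of Hsp90b1 overlaps 1810014B01Rik on the opposite strand, a gene with between 2 and 93 counts per library. Xbp1 (chr11:5520659-5525893), encoding the transcription factor made from the mRNA that IRE1 splices, stood at 38.1, 50.4, 33.0 and 50.9 CPM in vehicle pools 1 to 4 and 45.4, 30.2, 41.0 and 43.0 CPM in NAM/PN pools 1 to 4. The pools moved in opposite directions and the NAM/PN library of pool 2 was the lowest of the 8. Xbp1 had a log2 fold change of -0.11 (SE 0.27, 95% interval -0.67 to 0.45, adjusted p = 0.971).

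**Figure D3:**
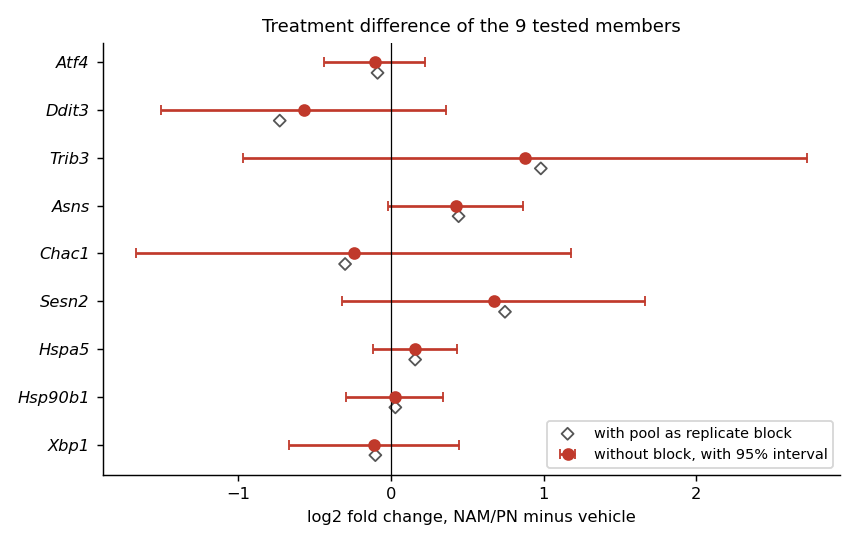
Log2 fold change of each tested gene, NAM/PN minus vehicle, with its 95% interval (red) and the estimate with the pool as replicate block (open diamonds). All 9 intervals cross 0, those of Atf4, Hspa5 and Hsp90b1 are the narrowest, and that of Asns reaches to -0.019.

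The other genes of the same pathways were counted in 8 lists, and the genes named below were chosen within each list by their p-values in this comparison. The lists were drawn up with earlier results of these data known, so their shares beside those of all genes are descriptive. Together the lists held 195 genes, of which 185 were tested, and 1 rose and 0 fell, against 1.28% of all tested genes. That 1 call, of Slc7a11, was lost in the fit with the pool as block (adjusted p = 0.0644). At an unadjusted p under 0.05 there were 10 higher and 8 lower (9.73%), against 9.28% of all tested genes. The median log2 fold change over the 185 genes was 0.026, with 100 higher and 85 lower.

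The amino acid synthesis and transport genes of the ATF4 program, 22 of 23 tested, had a median log2 fold change of 0.43, beside -0.0022 over all tested genes. Of the 22 genes 18 were higher and 4 lower with NAM/PN, and 6 (27.3%) were at an unadjusted p under 0.05, all of them higher, against 9.28% of all tested genes in either direction and 3.96% higher. After adjustment 1 rose and 0 fell, and 4 of the 22 (18.2%) had libraries without overlap, against 7.21%. Slc7a11 encodes xCT, the transporter that exchanges glutamate for cystine and feeds glutathione synthesis. Its level was 11.5, 10.9, 20.1 and 11 CPM in vehicle pools 1 to 4 and 37.3, 70.4, 29.4 and 29.0 CPM in NAM/PN pools 1 to 4. Every NAM/PN library lay above every vehicle library. The log2 fold change was 1.63 (SE 0.38, adjusted p = 0.0327), and in a fit with the pool as replicate block, in which 1.29% of all tested genes passed, it was 1.58 and the call was lost (adjusted p = 0.0644). The call was also lost, at an adjusted p of 0.0767 to 0.216, without NAM/PN replicate 1 or 2 or vehicle replicate 1, 2 or 4, and at 0.108 to 0.471 without pool 1, 2 or 4. Slc7a11 is also a known target of NRF2.

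Slc1a5, encoding the glutamine transporter ASCT2, stood at 78.5, 59.8, 54.3 and 50.8 CPM in vehicle pools 1 to 4 and 94.2, 133, 107 and 95.8 CPM in NAM/PN pools 1 to 4. Psat1, encoding an aminotransferase of serine synthesis, stood at 137, 165, 102 and 148 CPM in vehicle pools 1 to 4 and 198, 238, 199 and 281 CPM in NAM/PN pools 1 to 4. Neither gene had overlapping conditions. The log2 fold changes were 0.82 for Slc1a5 (SE 0.21, adjusted p = 0.0689) and 0.73 for Psat1 (SE 0.19, adjusted p = 0.0736). They did not pass the threshold in edgeR's quasi-likelihood test. Both passed in DESeq2 (adjusted p = 0.0220 and 0.0133), which called 289 of 12036 genes. In voom Slc1a5 passed (adjusted p = 0.0201) and Psat1 did not (adjusted p = 0.0521). In quasi-likelihood fits with a library or pool left out, Slc1a5 passed only without vehicle replicate 1 (adjusted p = 0.0495), and Psat1 in none. Without pool 2 the adjusted p was 0.489 for Slc1a5 and 0.283 for Psat1. Among the other genes at an unadjusted p under 0.05, named after their values were seen, Phgdh of serine synthesis differed by 0.85 on the log2 scale (adjusted p = 0.422) and Shmt2 of mitochondrial serine breakdown by 0.44 (adjusted p = 0.480). Of the genes with lower values, Gpt2, an alanine aminotransferase, stood at -0.67 (adjusted p = 0.806) and Slc38a2, a transporter of neutral amino acids, at -0.12 (adjusted p = 0.929). Over all alternatives Gpt2 ranged from -0.9985 to -0.30. The composite element was present in 5 of the 17 genes of the list with a promoter window, which were Slc7a11, Slc1a4, Pck2, Got1 and Pycr1, with log2 fold changes of 1.63, 1.01, 0.44, 0.058 and -0.44.

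**Figure D4:**
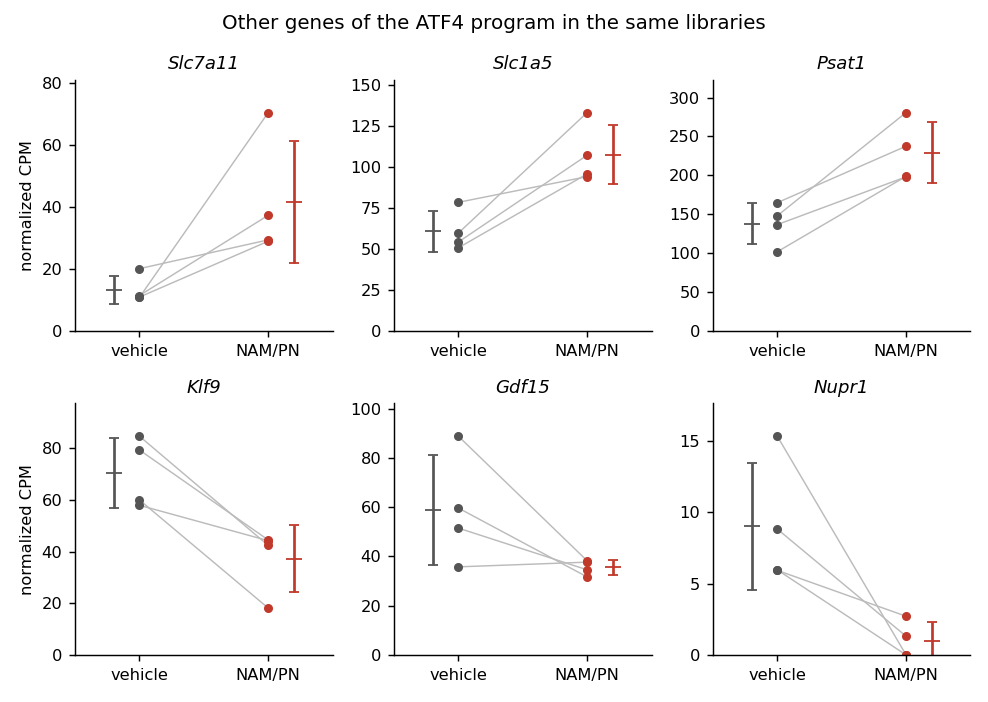
Normalized CPM of 6 genes of the ATF4 program in each library, drawn as for the members. Slc7a11, Slc1a5 and Psat1 show all NAM/PN libraries above all vehicle libraries, Klf9 and Nupr1 show the opposite order, and Gdf15 overlaps.

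The other stress genes of the ATF4 program and the amino acid genes were put in separate lists with earlier results of these data known. Their opposite lean is therefore a description and was not tested. Among the other stress genes, 23 of 25 tested, the smallest p-values belonged to genes with lower values. Here 0 genes rose and 0 fell, and 6 (26.1%) were at an unadjusted p under 0.05, all of them lower, against 9.28% of all tested genes in either direction and 5.32% lower. With the replicate block 5 were at an unadjusted p under 0.05, all of them lower. DESeq2 and voom also called 0 of them. Libraries did not overlap in 4 of the 23 (17.4%), against 7.21% of all tested genes. The median log2 fold change was -0.034, with 11 higher and 12 lower. Klf9, a Krüppel-like transcription factor, stood at 57.9, 84.6, 79.3 and 60.0 CPM in vehicle pools 1 to 4 and 44.2, 42.4, 44.5 and 18.1 CPM in NAM/PN pools 1 to 4. Its conditions did not overlap, and its log2 fold change was -0.92 (SE 0.28, adjusted p = 0.158). Gdf15, a secreted stress hormone, stood at 35.8, 51.5, 88.8 and 59.6 CPM in vehicle pools 1 to 4 and 37.7, 34.6, 38.2 and 31.7 CPM in NAM/PN pools 1 to 4, and was lower with NAM/PN in 3 of 4 pools. Its log2 fold change was -0.73 (SE 0.28, adjusted p = 0.337). Ddit4 at -0.75 (adjusted p = 0.467), Tnfrsf10b at -0.65 (adjusted p = 0.402) and Jdp2 at -0.47 (adjusted p = 0.500), named after their values were seen, encode an inhibitor of mTORC1, a death receptor and an AP-1 repressor. The composite element was present in 5 of the 22 genes of this list with a window, and the 4 tested ones were Vldlr, Herpud1, Jdp2 and Nupr1, with log2 fold changes of 0.042, 0.018, -0.47 and -3.13. With the pool as block Vldlr stood at -0.82 and Nupr1, which had 0 counts in 2 NAM/PN libraries, at -4.36, and over all alternatives Nupr1 ranged from -4.90 to -2.35. Eif4ebp1, encoding a repressor of cap-dependent translation, stood at 0.28 (adjusted p = 0.834), and Map1lc3b, encoding the autophagosome protein LC3B, at 0.29 (adjusted p = 0.843). Over all alternatives they ranged from 0.092 to 0.44 and from 0.071 to 0.47. Among the genes of this list with higher values, only Cebpb, named further on with the sensors, had a smaller p-value.

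Upstream of ATF4, the eIF2 kinases, phosphatases and exchange factor gave 0 of 19 genes called, with 9 higher and 10 lower, 1 at an unadjusted p under 0.05 in each direction and a median of -0.0081 on the log2 scale. Eif2ak1, encoding the heme-regulated kinase HRI, stood at 39.0, 27.8, 34.8 and 39.5 CPM in vehicle pools 1 to 4 and 58.8, 43.9, 70.5 and 54.5 CPM in NAM/PN pools 1 to 4. Its NAM/PN libraries all lay above its vehicle libraries, with a log2 fold change of 0.69 (SE 0.25, adjusted p = 0.307). Eif2ak3, encoding PERK, stood at -1.57 (SE 0.93, adjusted p = 0.704) from means of 8.58 and 2.88 CPM, with vehicle replicate 2 at 18.9 CPM and the other vehicle libraries at 3.09 to 6.39 CPM, and at -0.84 without that library. Of the exchange factor subunits, Eif2b3 stood at 0.49 (adjusted p = 0.701), or 0.13 without NAM/PN replicate 4, and Eif2b4 at -0.69 (adjusted p = 0.362). The sensors and transcription factors of the unfolded protein response gave 0 of 17 tested genes called out of 20 listed, with 10 higher and 7 lower and a median of 0.13. Nupr1, a small stress-induced nuclear protein, stood at 5.92, 5.96, 15.3 and 8.81 CPM in vehicle pools 1 to 4 and 2.71, 0, 0 and 1.31 CPM in NAM/PN pools 1 to 4. It was the 1 gene of the list at an unadjusted p under 0.05, with an adjusted p of 0.432, and 2 NAM/PN libraries had 0 counts. Creb3l1, an ER-anchored factor of secretory cells, stood at -0.63 (adjusted p = 0.571), Atf6b at 0.32 (adjusted p = 0.784) and Cebpb, a partner of ATF4, at 0.42 (adjusted p = 0.812).

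Downstream of the ER sensors, the chaperones and folding enzymes gave 0 of 43 tested genes called out of 45 listed. They counted 18 higher and 25 lower, 1 at an unadjusted p under 0.05 in each direction, and a median log2 fold change of -0.039. Erp29, an ER folding factor, stood at 0.44 (adjusted p = 0.467), Cnpy3, a cochaperone of GRP94, at 0.41 (adjusted p = 0.701), Fkbp10, a prolyl isomerase of collagen folding, at -0.77 (adjusted p = 0.357) and Rcn1, a calcium-binding protein of the ER, at -0.27 (adjusted p = 0.782). The ER stress element was present in 6 of the 38 genes of this list with a window, and the 5 tested ones had log2 fold changes of 0.47 (Creld2), 0.25 (Pdia6), -0.091 (Canx), -0.18 (Dnajc3) and -0.20 (Calr). Over all tested genes with a window, 13 held the ER stress element with a median of 0.024 and 0 called, and 219 held the composite element with a median of 0.021 and 2 called higher and 5 lower (3.20%), beside a median of 0.0023 and 23 called higher and 86 lower (1.23%) over the 8858 tested genes with a window.

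ER-associated degradation gave 0 of 29 tested genes called out of 30 listed, with 16 higher, 13 lower, 0 at an unadjusted p under 0.05 and a median of 0.033. The ubiquitin ligase gene March6 stood at 0.70 (adjusted p = 0.597), the conjugating enzyme gene Ube2j2 at 0.29 (adjusted p = 0.748), Ubxn4, encoding an ER-bound partner of the ATPase p97, at -0.25 (adjusted p = 0.785) and Ngly1, encoding the glycan-removing enzyme, at -0.87 (adjusted p = 0.80). The value of Ngly1 was -0.0064 without vehicle replicate 3, which stood at 32.1 CPM against 4.96 to 11 CPM in the other vehicle libraries. The translocon, signal peptidase and signal recognition particle gave 0 of 24 tested genes called out of 25 listed, with 14 higher and 10 lower, 1 at an unadjusted p under 0.05 and a median of 0.019. Sec61a1, the pore subunit of the translocon, stood at 0.39 (adjusted p = 0.500), Ssr3 at 0.38 (adjusted p = 0.578), Sec61b at -0.38 (adjusted p = 0.701) and Srp9 at -0.37 (adjusted p = 0.834), or -0.088 without pool 2. Mitochondrial chaperones and proteases, whose stress signal also reaches ATF4, gave 0 of 16 genes called, with 9 higher and 7 lower, 1 at an unadjusted p under 0.05 and a median of 0.012. Hspe1, the mitochondrial cochaperonin, stood at 0.49 (adjusted p = 0.402), Phb2 at 0.27 (adjusted p = 0.749), Trap1 at -0.35 (adjusted p = 0.788), or -0.025 without pool 2, and Clpx at -0.67 (adjusted p = 0.873), with values from -1.32 to -0.25 when a library or pool was left out. DESeq2 and voom also called 0 genes in each list other than those of the ATF4 program.

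**Figure D5:**
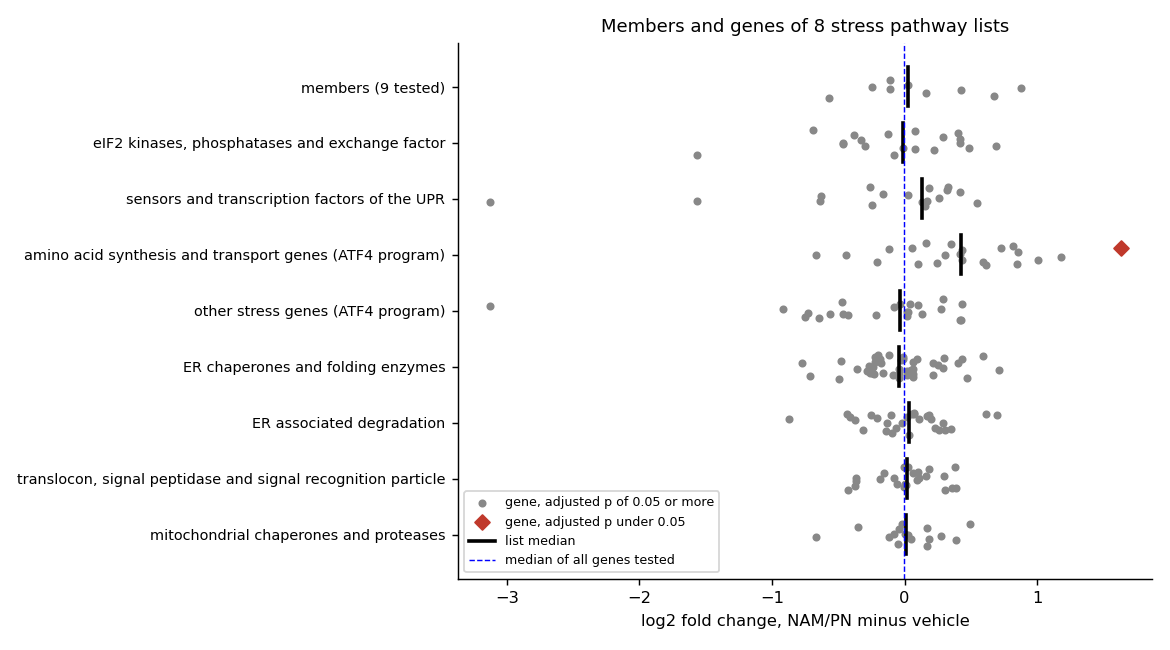
Log2 fold change, NAM/PN minus vehicle, of each tested gene among the members and the 8 lists, with the median of each list as a black bar and the median of all tested genes as a dashed line. The median of the amino acid list lies at 0.43, the medians of the members and the other 7 lists lie between -0.039 and 0.13, and Slc7a11 is the only gene drawn as passing the test.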

How the data were processed

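RNA of 8 libraries, from 4 pools of aged mouse MuSCs with vehicle and with NAM/PN, was read from the 3′ end with a QuantSeq kit. Raw read counts per gene were deposited by the authors, aligned to GRCm38 and counted with HTSeq 2.16.2 per the labels. The annotation release and strand setting of the counting are not given in the sources used here. The 10 genes and the lists were chosen with earlier results of these data known.

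Genes were filtered with filterByExpr (minimum count 10, minimum total count 15) in edgeR 4.0.16 under R 4.3.3, scaled with TMM factors (trimmed mean of M-values), and compared by the quasi-likelihood test without a block. P-values were adjusted by Benjamini-Hochberg across the genes tested, with a threshold of 0.05. Log2 CPM used a prior count of 2. Library totals were 6472484 to 10163101, and the floor of 3 counts covers counting error only. The intervals of log2 fold changes came from the quasi-likelihood test, so they also include the spread between libraries. Conditions were paired by the pool number of the labels, because both libraries of a pool came from the same mice, and the correlation of their deviations from the group means was -0.011, 0.014, -0.033 and 0.031 for pools 1 to 4.

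Named genes were the 10 members and, in each of the 8 lists, every called gene and the 2 genes with the smallest p among those higher and among those lower, without repeats. Alternatives were the replicate block, DESeq2 1.42.0, other size factors, no filter, voomWithQualityWeights of limma 3.58.1, a threshold of 0.10, a robust fit, thinned counts, the table without the ribosomal RNA gene, and fits without each single library or pool. Promoter windows came from RefSeq on GRCm38.p6 and gene positions from GENCODE M21 on GRCm38. Figures were drawn with matplotlib. C-terminal ER retrieval signals were planned but not analysed here, and the values of 1 list gene are not reported here.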

Additional observations from a re-analysis of the deposited data

Results flagged for a closer look

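Each condition's 4 libraries were examined for 1 library far from the other 3, by the gap to the nearest library as a share of the whole range, with Dixon's 95% limit for 4 samples. Of 96 groups of 4 libraries examined, 8 passed the limit, where chance gives about 1 in 20, or 4.8. Among the members, Hspa5 passed with NAM/PN, at a share of 0.906, because replicate 2 stood at 1473 CPM and the others at 1323 to 1337 CPM. Slc7a11 passed with vehicle at 0.938, where replicate 3 stood at 20.1 CPM and the others at 10.9 to 11.5 CPM. Gpt2 passed with vehicle at 0.884, where replicate 2 stood at 6.95 CPM and the others at 30.9 to 34.1 CPM. In 4 of the 8 groups the library apart was NAM/PN replicate 4. These were Klf9 at 0.920 (18.1 CPM against 42.4 to 44.5 CPM), Eif2b3 at 0.859 (113 CPM against 48.1 to 57.3 CPM), Sec61b at 0.862 (48.9 CPM against 78.3 to 83.0 CPM) and Ubxn4 at 0.852 (233 CPM against 348 to 368 CPM). NAM/PN replicate 4 held the most counts (10163101) and the fewest genes detected (12483). Over all genes, the chi-square per degree of freedom was 61.2 to 71.6 between it and the other NAM/PN libraries. It was 20.8 to 23.2 among those others. Vehicle replicate 3 stood apart in the same way, at 58.9 to 74.0 against 20.7 to 25.6. The summed differentiating myocyte markers passed with vehicle at 0.839, where replicate 1 stood at 2024 CPM and the others at 3584 to 3882 CPM.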

How the results depend on the processing

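Under all 22 alternatives 0 of the tested members were called. With the replicate block the number called in the amino acid list went from 1 to 0 (Slc7a11, adjusted p = 0.0644), and the block changed no other call of a member or of a gene in the 8 pathway lists. The list gave 4 calls with DESeq2, 3 without the filter on low counts, 2 with voom and 3 at a threshold of 0.10, and 0 to 1 when a library or pool was left out. Without the filter, 1 of the other stress genes was called (Klf9, adjusted p = 0.0276). When a library or pool was left out, the log2 fold change lay between -0.20 and 0.0018 for Atf4, -0.92 and 0.013 for Chac1, -0.057 and 0.11 for Hsp90b1 and -0.24 and 0.084 for Xbp1, so that these signs were not stable. Over all genes, 154 were called, against 289 with DESeq2, 366 without the filter, 232 with voom, 244 at a threshold of 0.10 and 42 to 177 with a library or pool left out. The cause of these shifts was not tested. The lowest levels in a single library were 0.371 CPM for Trib3, 3.21 for Chac1, 6.85 for Ddit3 and 6.75 for Sesn2. With counts thinned to the smallest library Trib3 stood at 0.91, Chac1 at -0.11, Ddit3 at -0.52 and Sesn2 at 0.76 on the log2 scale.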
